A study of Homo sapiens with 36 samples.

Results

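The 10 genes described here encode neuronal microtubule-associated proteins and stathmins: MAPT, MAP2, MAP1A, MAP1B, DCX, DCLK1, STMN1, STMN2, STMN3 and STMN4. They were chosen by gene symbol, as the rows of the gene-level tables that carry these names. Each name matched 1 row, giving 10 of the 62710 genes in the tables, and all 10 passed the filter on low counts in each of the 20 comparisons.

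Microtubules are hollow polymers of alpha- and beta-tubulin that give axons and dendrites their shape and serve as tracks for transport. Tau, the product of MAPT, and MAP2 bind along the polymer, with tau best known from axons and MAP2 from dendrites, whereas MAP1B is typical of growing axons and its paralog MAP1A of more mature neurons. Doublecortin, encoded by DCX, marks newborn migrating neurons, and DCLK1 carries the same kind of microtubule-binding domains joined to a kinase. Stathmins act in the other direction: they bind free tubulin dimers and favour disassembly, STMN1 in dividing cells as well as neurons, and STMN2, STMN3 and STMN4 as membrane-anchored relatives found mainly in neurons.

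RNA was sequenced from H9, an established human embryonic stem cell line, in 3 RAI1 genotypes: wild type (WT), RAI1+/− (HET) and RAI1−/− (KO). RAI1 encodes a chromatin-associated nuclear protein. All 3 genotypes carried doxycycline-dependent NGN2, a proneural transcription factor that turns stem cells into neurons, and were harvested before induction (day 0) and after 3 and 7 days, with 4 libraries labelled as biological replicates in each of the 9 groups, 36 in all. The labels name the same culture medium, with doxycycline during induction, for the 3 genotypes and 1 batch for all libraries. They do not say how many clones stand behind each mutant genotype, what the RAI1 edits are, or which promoter drives NGN2 beyond its dependence on doxycycline, and p-values measure only the spread between these libraries.

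Total counts ran from 23948079 to 56678796 per library. A set of 5 abundant structural RNAs took 2.84% to 27.5% of a library's counts, a share that varied within groups: in HET at day 7 it was 27.5% in replicate 1 and as low as 2.84% in another library. Levels are therefore given as normalised CPM, counts relative to the library's total after trimmed-mean scaling over the 36 libraries, which compare 1 gene across libraries, and as the deposited TPM, which allow for transcript length, where different genes are compared within a library. RAI1 itself was not called lower in any mutant group: at day 7 WT libraries stood at 37.5–73.8 CPM, HET at 50.5–85.7 and KO at 63.9–95.7, where it was called higher in KO, 0.69 (SE 0.22, adjusted p = 0.0296) on the log2 scale. Since the edits are not described a count over the whole gene does not check the genotype labels. NEUROG2, the gene for NGN2, whose own and introduced copies cannot be told apart here, was lower in KO than in WT at all 3 days: at day 3 WT averaged 22330 ± 2662 CPM, HET 16090 ± 1873 and KO 8945 ± 1412 (SD, n = 4 per group), a log2 difference from WT of -1.34 (SE 0.21, adjusted p = 0.000526) in KO and -0.46 (SE 0.20, adjusted p = 0.326) in HET. The part of this difference in the results below was not tested. Marker genes changed along the course: the summed level of 9 neuron genes rose in WT from 131.0–276.6 CPM at day 0 to 4485–9192 CPM at day 7, the 8 pluripotency genes went from 2643–3492 to 106.4–129.8 CPM and the 8 neural progenitor genes from 946.3–1390 to 457.8–692.0 CPM, and the 9 astrocyte and oligodendrocyte genes from 75.3–108.9 CPM at day 0 through 34.2–37.2 at day 3 to 94.2–229.1 at day 7, with 3 called higher and 1 lower in the second interval. Within that list GFAP, AQP4, S100B and ALDH1L1 each averaged under 1 CPM at days 3 and 7 in all genotypes. In these bulk samples, fewer cells of a type and less RNA per cell cannot be told apart.

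Sequence upstream of 4 of the genes is shown because these genes followed the contrasting courses described below. DCLK1 and MAP2 dipped at day 3 in WT. MAP1A rose to day 3 in WT, and its fall after day 3 was called in HET and KO but not in WT. STMN3 was not called different from WT in either mutant by the test used throughout. Each run is the 250 bases before a RefSeq transcription start on GRCh38.p14, written on the strand of the gene; for genes with several starts it is one of them, and gene-level counts cannot be assigned to a start. Capitals mark CAGATG, a form of the E-box that proneural factors such as NGN2 bind, or its reverse complement CATCTG, searched on both strands, with no overlap between matches.
DCLK1, chr13:36131383-36131632, minus strand: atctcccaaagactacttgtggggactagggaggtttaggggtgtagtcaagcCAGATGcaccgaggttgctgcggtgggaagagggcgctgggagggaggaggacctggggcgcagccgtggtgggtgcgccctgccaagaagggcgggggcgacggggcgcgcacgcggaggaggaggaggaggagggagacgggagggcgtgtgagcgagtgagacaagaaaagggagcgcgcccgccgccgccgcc
MAP2, chr2:209579082-209579331, plus strand: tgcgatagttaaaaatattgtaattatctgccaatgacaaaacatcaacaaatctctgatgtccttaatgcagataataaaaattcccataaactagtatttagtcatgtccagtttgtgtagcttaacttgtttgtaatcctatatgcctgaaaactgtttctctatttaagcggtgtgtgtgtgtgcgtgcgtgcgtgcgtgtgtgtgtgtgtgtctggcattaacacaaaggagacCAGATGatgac
MAP1A, chr15:43510704-43510953, plus strand: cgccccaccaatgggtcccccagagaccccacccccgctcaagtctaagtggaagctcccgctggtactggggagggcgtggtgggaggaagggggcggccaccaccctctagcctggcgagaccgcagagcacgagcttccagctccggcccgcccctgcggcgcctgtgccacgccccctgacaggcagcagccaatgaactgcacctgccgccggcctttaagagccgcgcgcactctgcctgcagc
STMN3, chr20:63652767-63653016, minus strand: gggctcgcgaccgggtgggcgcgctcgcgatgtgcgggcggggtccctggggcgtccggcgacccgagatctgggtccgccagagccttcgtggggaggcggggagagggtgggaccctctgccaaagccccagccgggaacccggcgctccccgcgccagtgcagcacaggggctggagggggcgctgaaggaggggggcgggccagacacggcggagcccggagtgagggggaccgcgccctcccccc
The DCLK1 window held CAGATG with its first base at position −197 from the start and the MAP2 window held it at −11, where position −1 is the base next to the start; the MAP1A and STMN3 windows held none. This depends on the start shown: the other 2 MAP2 windows and the DCLK1 window starting at 36131940 held no match, while another DCLK1 window, not shown, held 2. The last 17 bases of the MAP2 window lie in an annotated MAP2 exon. GC content was 68.8% for DCLK1, 37.6% for MAP2, 70.4% for MAP1A and 78.0% for STMN3. RefSeq windows were found for 7 of the 10 genes, 17 windows in all, of which 4 held a match, in DCLK1, MAP1B and MAP2. Among all 35116 windows of this length, 12.15% held one. A match describes letters in a window and nothing about binding.

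In WT the 10 genes did not move as a block during induction. From day 0 to day 3, 8 were higher and 2 lower (edgeR's quasi-likelihood test with Benjamini-Hochberg adjustment over all genes, adjusted p under 0.05, as in all such calls here), against a background of 60% of all genes called, 31.2% higher and 28.7% lower. From day 3 to day 7, 8 were higher and 1 lower, against 46.2%, with 23.3% higher and 22.9% lower. The WT changes to day 3 were largest for STMN2, which went from 2.15–5.67 to 33.6–86.5 CPM, and for DCX, from 15.1–43.1 to 184–357 CPM. These correspond to log2 changes of 4.14 (SE 0.40, adjusted p = 7.01e-07) and 3.16 (SE 0.34, adjusted p = 2.13e-06).

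MAP2 and DCLK1 went the other way before rising. MAP2 stood at 134, 253, 239 and 175 CPM in the 4 WT libraries at day 0, at 49.7, 124, 103.3 and 85.9 at day 3 and at 164, 479, 455 and 578 at day 7. DCLK1 stood at 22.0, 24.3, 15.7 and 13.8, then 3.24, 6.73, 5.62 and 3.39, then 32.0, 87.5, 83.2 and 119.6 CPM. For both genes all 4 libraries at day 3 were below all 4 at day 0. Groups that do not overlap were seen for 54.6% of all genes between these days. The log2 change to day 3 was -1.15 (SE 0.35, adjusted p = 0.0107) for MAP2 and -2.005 (SE 0.36, adjusted p = 0.000222) for DCLK1, and the rise from day 3 to day 7 was 2.21 (SE 0.36, adjusted p = 0.000159) and 4.09 (SE 0.38, adjusted p = 1.04e-06). Of all genes called between WT days 0 and 3, 52.0% were higher; in a limma fit of log2(TPM + 1), where the median change of all genes was -0.38, that share was 14.7%.

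The other 8 genes rose in WT to day 3 and then separated. In WT, MAPT ran over 2.42–3.40, 4.48–10.0 and 78.7–222 CPM at days 0, 3 and 7, with log2 changes of 1.55, SE 0.30 and then 4.21, SE 0.32. STMN4 ran over 0.0275–0.793, 0.645–3.64 and 46.5–146 CPM, changing by 2.90, SE 0.65 and then 5.33, SE 0.58. STMN1 rose to day 3, from 312–349.7 to 1068–1305 CPM, and was lower again at day 7, a log2 change of -0.43 (SE 0.17, adjusted p = 0.0492), at 619.6–1159 CPM. That last call did not hold when any 1 of 6 libraries was left out, namely WT day 3 replicates 1, 2 and 3 (adjusted p = 0.0674, 0.0738 and 0.0629) and WT day 7 replicates 1, 2 and 3 (0.117, 0.0966 and 0.0935). MAP1A rose to 383–537 CPM at day 3 from 56.1–88.6 and was not called different at day 7. DCX, MAP1B, STMN2 and STMN3 rose in both intervals. With limma on log2(TPM + 1), on which the median of all genes shifted by -0.38 to day 3, the first rise was not called for MAPT (0.21, adjusted p = 0.512), MAP1B (0.37, 0.408) or STMN4 (0.58, 0.137), and the second was not called for MAP1B (0.78, 0.141) or STMN3 (0.45, 0.247). WT day 7 replicate 1 held the lowest value of its group for all 10 genes, and its summed level of 8 proliferation genes, 248.9 CPM, was the highest of the group. Its structural RNA share, 25.6%, was also the highest of the group.

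The same intervals were tested within each mutant, and the direct tests of the differences between genotypes are given further on. In HET, 8 members were higher and 1 lower at day 3 than at day 0, and 7 higher and 1 lower at day 7 than at day 3, against 48.3% of all genes called in the first interval (24.4% higher, 23.9% lower) and 41.2% in the second (20.8% higher, 20.5% lower). DCLK1 was the member lower at day 3, by -1.59 (SE 0.51, adjusted p = 0.0202), a call lost without HET day 0 replicate 2 (adjusted p = 0.0579) or HET day 3 replicate 1 (0.0613), and MAP2 did not pass there (-0.13, SE 0.41, adjusted p = 0.808). In KO, 9 members were higher and none lower at day 3 than at day 0, and 8 higher and 1 lower at day 7 than at day 3, against 59.3% (29.7% higher, 29.6% lower) and 47.8% (24.3% higher, 23.6% lower). The member lower at day 7 was MAP1A in both mutants. In KO the rise of MAP1B from day 3 to day 7, 0.66 (SE 0.23, adjusted p = 0.0300), was lost without KO day 3 replicate 1, 3 or 4 or KO day 7 replicate 1, 2 or 3 (adjusted p from 0.0582 to 0.0816).

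**Figure D1:**
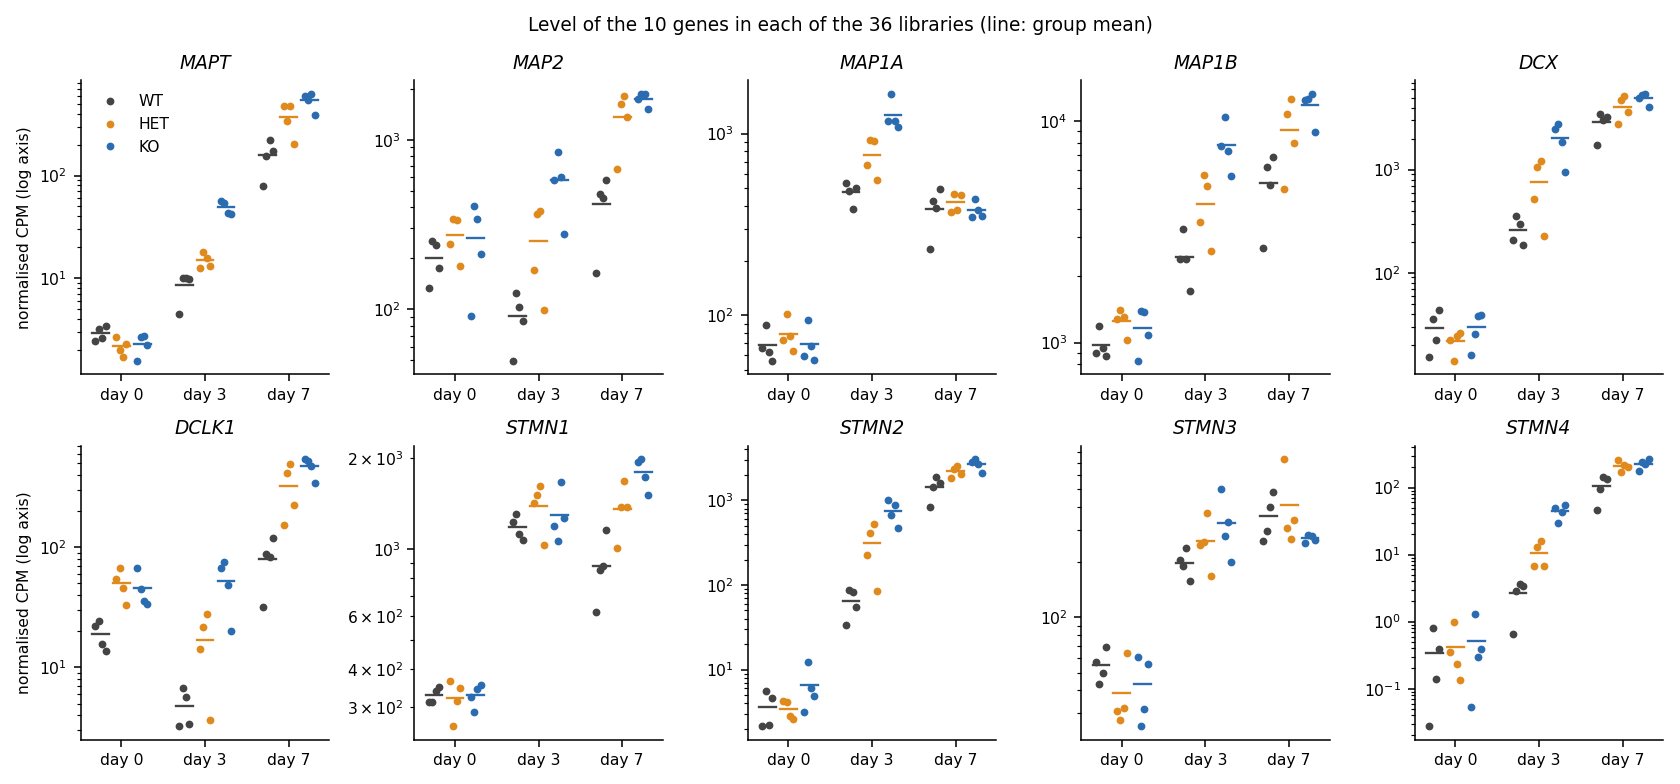
Level of each gene in each library, in normalised CPM on a log axis that differs between panels, by day; black points are WT, orange HET and blue KO (4 libraries each), and the line is the group mean. In WT, MAP2 and DCLK1 dip at day 3; at day 3 the KO points of MAPT, 42.6 to 56.9 CPM, lie above all WT points, 4.48 to 10.0 CPM, while those of STMN1 overlap them.

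**Figure D2:**
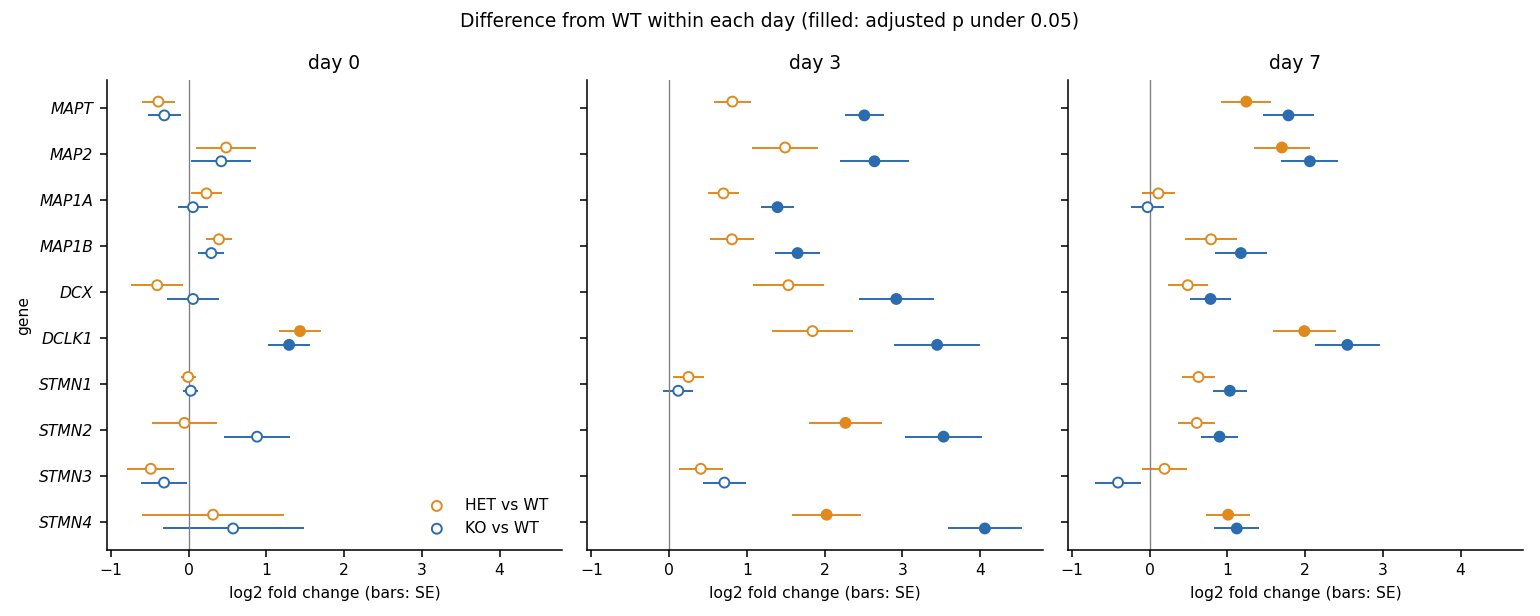
Log2 fold change of HET (orange) and KO (blue) from WT within each day, 1 row per gene; bars are the standard error and filled points have an adjusted p under 0.05 in edgeR. DCLK1 is the filled gene at day 0; at day 3 the KO points run up to 4.06 for STMN4, and at day 7 MAP1A and STMN3 are not filled.

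At day 0, before induction, DCLK1 was the member called different between genotypes, in both mutants. It stood at 54.6, 67.2, 45.9 and 33.3 CPM in HET and 67.6, 45.2, 35.6 and 33.7 in KO, against 22.0, 24.3, 15.7 and 13.8 in WT. Every mutant library lay above every WT library. The log2 difference was 1.29 (SE 0.27, adjusted p = 0.0256) in KO and 1.43 (SE 0.27, adjusted p = 0.0152) in HET, 1 of 10 members each time, against backgrounds of 2.08% and 1.63% of all genes called, of which higher calls made up 1.66% and 1.22% of all genes and lower calls 0.416% and 0.411%. Groups that do not overlap were seen for 8.56% and 7.14% of all genes. Both comparisons use the same 4 WT libraries, as do those at days 3 and 7. With the replicate number as a block the KO difference was 1.29 (adjusted p = 0.000298), and in HET the block added MAP1A (0.23, adjusted p = 0.0490). Not all same-numbered HET and WT libraries deviated together at this day. The summed astrocyte and oligodendrocyte genes were 75.3–108.9 CPM in WT, 91.1–128.5 in HET and 123.4–160.4 in KO at day 0, with 1 of 8 tested called higher in KO. The 8 mesenchymal genes summed to 284.0–1148, 247.5–1405 and 190.3–1479 CPM, and the 9 neuron genes to 131.0–276.6, 152.9–313.9 and 203.0–357.7 CPM. For both of these lists replicate 2 was the highest library of each genotype. No gene of the other 5 cell type lists was called in either mutant by edgeR. The part of any of these lists in the DCLK1 difference was not tested. Neither call was made by limma on log2(TPM + 1) (adjusted p = 0.1504 in KO and 0.0975 in HET) or in a fit over all 36 libraries (0.261 and 0.186). In KO the call was lost without WT replicate 1, 3 or 4 (adjusted p = 0.0549, 0.0998 and 0.0843) and without KO replicate 1 or 2 (0.0529 and 0.0572), and in HET without WT replicate 3 or 4 (0.0690 and 0.0596). NEUROG2 was lower in KO at day 0, by -3.48 (SE 0.38, adjusted p = 0.000168) on the log2 scale, and did not pass in HET (adjusted p = 0.0711): WT libraries held 10.9–32.2 CPM, HET 4.8–12.1 and KO 1.55–2.24. Its part in the DCLK1 difference was not tested.

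At day 3, 8 of the 10 genes were higher in KO than in WT and none was lower: MAPT, MAP2, MAP1A, MAP1B, DCX, DCLK1, STMN2 and STMN4. Of all 21563 genes tested, 21.6% were called and 12.6% were called higher, so that 58.6% of the calls were higher; with limma on log2(TPM + 1), where the median of all genes was 0.20, that share was 85.9%. The median log2 difference of the 10 genes was 2.58, beside -0.05 for all genes. For the same 8 genes the 4 KO and 4 WT libraries did not overlap, which held for 23.1% of all genes. In HET, 2 genes were called, STMN2 and STMN4, both higher, against 3.28% of all genes, and the median of the 10 was 1.15; the libraries did not overlap for MAPT, MAP1A and STMN4, as for 8.19% of all genes. Deviations of same-numbered libraries at day 3 correlated by 0.14 to 0.549 between KO and WT and by 0.166 to 0.767 between HET and WT. The WT library of the same number correlated best for 3 of the 4 KO libraries and 2 of the 4 HET libraries. With the number as a block, 9 genes were called in KO and 8 in HET. The shares of all genes above are from the fit without the block, and no share with it is given. The genes added by the block were STMN3 in KO (0.66, adjusted p = 0.0140) and MAPT, MAP2, MAP1A, MAP1B, DCX and DCLK1 in HET, with blocked log2 differences from 0.68 for MAP1A to 1.63 for DCLK1.

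Of the marker lists, neuron genes were called higher at day 3 for 8 of 9 in KO and 5 of 9 in HET, and proliferation genes lower for 5 of 8 in KO and 0 of 8 in HET. The summed level of the 9 neuron genes at that day was 1179–1369 CPM in WT, 1864–3106 in HET and 3519–5618 in KO, with none of the 9 at 0, and that of the 8 proliferation genes was 1352–2557, 1569–2164 and 481.0–1330 CPM. The astrocyte and oligodendrocyte list, 9 genes, summed to 34.2–37.2 CPM in WT, 29.04–47.6 in HET and 43.1–70.1 in KO, with AQP4 and S100B at 0 in WT and AQP4 at 0 in HET. The 8 pluripotency genes summed to 240.6–343.7 CPM in WT, 283.1–488.4 in HET and 360.4–492.7 in KO, where 2 of the 6 tested were called higher. The structural RNA share was 8.99% to 19.6% in WT, 5.11% to 16.1% in HET and 3.54% to 18.8% in KO. The 8 mesenchymal genes summed to 249.1–605.2 CPM in WT, 149.5–916.1 in HET and 71.6–275.7 in KO, with replicate 4 the highest library of each genotype, and the 8 neural progenitor genes to 850.1–1245, 928.2–1152 and 780.2–1109 CPM. The part of any of these in the member differences was not tested.

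Tau and MAP2, related proteins that bind along the microtubule lattice, were both higher in KO at day 3. MAPT stood at 4.48, 9.94, 10.0 and 9.76 CPM in WT, 12.5, 18.2, 15.6 and 13.2 in HET and 56.9, 54.2, 43.4 and 42.6 in KO. The KO difference was 2.51 (SE 0.25, adjusted p = 2.21e-05) on the log2 scale; HET was intermediate, did not overlap WT, and did not pass without the block (0.81, SE 0.24, adjusted p = 0.0910). MAPT shares exon sequence with the antisense gene MAPT-AS1, which reached at most 3.74 CPM before scaling, and because use of strand in the counting is not given in the sources used here its reads may be mixed with those of MAPT. MAP2 stood at 49.7, 124, 103.3 and 85.9 CPM in WT, 171, 367, 379.5 and 98.6 in HET and 578, 846, 599.5 and 279 in KO. The KO difference was 2.64 (SE 0.45, adjusted p = 0.00100). Replicate 4 was the lowest library in HET and in KO, and HET replicate 4 lay within the WT range.

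MAP1A and MAP1B are related scaffold-like proteins cut from precursors that also give their shared light chains. At day 3 MAP1A stood at 537, 483, 383 and 501 CPM in WT, 675, 919, 914 and 556 in HET and 1171, 1660, 1166 and 1081 in KO, so that the 3 genotypes did not overlap. Between KO and HET at this day, groups did not overlap for 10% of all genes. MAP1B stood at 2386, 3256, 2388 and 1715 CPM in WT, 3486, 5739, 5106 and 2603 in HET and 7686, 10450, 7325 and 5638 in KO. The KO differences, 1.39 (SE 0.21, adjusted p = 0.000414) for MAP1A and 1.65 (SE 0.29, adjusted p = 0.00126) for MAP1B, were the smallest 2 of the 8 called. HET differences were 0.70 (SE 0.20, adjusted p = 0.0916) and 0.81 (SE 0.28, adjusted p = 0.177).

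The doublecortin family showed wider differences. DCX stood at 206, 357, 298 and 184 CPM in WT, 524, 1050, 1213 and 227 in HET and 2460, 2800, 1843 and 945 in KO. Its KO difference was 2.92 (SE 0.48, adjusted p = 0.000819). DCLK1 stood at 3.24, 6.73, 5.62 and 3.39 CPM in WT, 14.3, 21.8, 28.0 and 3.63 in HET and 66.6, 75.5, 48.5 and 19.9 in KO. In KO the day-3 range overlapped the KO day-0 range, 33.7–67.6 CPM, and the log2 change between those days was 0.18 (SE 0.33, adjusted p = 0.660), whereas in WT it fell. The KO difference from WT at day 3 was 3.45 (SE 0.55, adjusted p = 0.000686).

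Among stathmins, the genes called at day 3 were STMN2 and STMN4, both products typical of neurons. STMN2 stood at 33.6, 86.5, 83.3 and 55.7 CPM in WT, 227, 409.6, 522 and 85.4 in HET and 1002, 669.8, 886 and 469.9 in KO. STMN4 stood at 0.645, 2.86, 3.64 and 3.39 CPM in WT, 6.80, 13.1, 15.8 and 6.69 in HET and 49.4, 29.4, 43.7 and 54.3 in KO. For STMN4 the 3 genotypes did not overlap, and for STMN2 KO overlapped HET while HET replicate 4 fell inside the WT range. Log2 differences from WT were 3.53 (SE 0.50, adjusted p = 0.000282) for STMN2 and 4.06 (SE 0.48, adjusted p = 7.46e-05) for STMN4 in KO, and 2.27 (SE 0.47, adjusted p = 0.0176) and 2.03 (SE 0.44, adjusted p = 0.0235) in HET.

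STMN1, the stathmin of dividing cells, overlapped between genotypes at day 3, at 1233, 1305, 1126 and 1068 CPM in WT, 1416, 1514, 1612 and 1030 in HET and 1195, 1060, 1664 and 1264 in KO. Its KO difference was 0.12 (SE 0.20, adjusted p = 0.7003). STMN3 stood at 206, 192, 238 and 159 CPM in WT, 247, 259.7, 371 and 169 in HET and 502, 279, 333 and 201 in KO, a KO difference of 0.71 (SE 0.28, adjusted p = 0.0895) that passed when KO replicate 4 was left out (0.91, adjusted p = 0.0265).

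HET counts at day 3 hung on single libraries. Replicate 4 was the lowest HET library for 9 of the 10 genes, and without it 7 genes were called: MAP2, MAP1A, MAP1B, DCX and DCLK1 joined STMN2 and STMN4, with log2 differences from 0.82 for MAP1A to 2.17 for DCLK1. Without HET replicate 2 (adjusted p = 0.0509 for STMN2 and 0.0642 for STMN4) or HET replicate 3 (0.0610 and 0.0822) no member was called. Other tools gave 0 (limma on TPM) to 7 (DESeq2). The share of all genes called is not given for the fits without a library or for these tools. STMN2 also lost its call without WT replicate 1 (adjusted p = 0.0642) or 4 (0.0606), and STMN4 without WT replicate 2 (0.0645). Of the KO calls at day 3, none was lost when any 1 library was left out, but MAP1A was lost with limma on log2(TPM + 1) (1.86, adjusted p = 0.0592).

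KO and HET were also compared directly. At day 3 MAPT (1.70, SE 0.24, adjusted p = 0.00178) and STMN4 (2.04, SE 0.43, adjusted p = 0.0201) were higher in KO, 2 of 10 against 4.35% of all genes, 2.77% higher and 1.58% lower. The count was 6 with DESeq2, 7 in a fit over all 36 libraries, 8 with the replicate number as a block and 0 with limma on log2(TPM + 1), where MAPT had an adjusted p of 0.282 and STMN4 of 0.119. For these alternatives the share of all genes called is not given. Not all same-numbered KO and HET libraries deviated together at day 3. The STMN4 call was lost without HET replicate 1 (adjusted p = 0.0816) or KO replicate 1 (0.0560), and without KO replicate 4, which was the lowest KO library for 8 of the 10 genes, DCX (1.66, adjusted p = 0.0480) and DCLK1 (1.91, 0.0397) passed as well. At days 0 and 7 no member was called between KO and HET by edgeR, by DESeq2 or by limma on TPM, beside 0.856% (0.524% higher, 0.333% lower) and 1.4% (0.668% higher, 0.737% lower) of all genes by edgeR; at an unadjusted p under 0.05 edgeR gave 1 member at day 0, STMN2, and 0 at day 7.

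By day 7 the set of 8 called genes in KO had changed in 1 place: STMN1 was now called and MAP1A was not. The background was 32.6% of all genes called and 17% called higher (52.1% of the calls, and 72.8% with limma on log2(TPM + 0.1)), and the 10 genes had a median log2 difference of 1.08 beside -0.04 for all genes. The libraries of the 2 genotypes did not overlap for the 8 called genes, against 36.8% of all genes. Limma on TPM called 4 of the 10, MAPT, MAP2, DCLK1 and STMN4, and a fit over all 36 libraries 5. In HET, MAPT, MAP2, DCLK1 and STMN4 were called, all higher, 4 of 10 against 14.4%, and limma on log2(TPM + 1) called 0. At this day the summed proliferation genes were 61.0–248.9 CPM in WT, 27.5–49.3 in HET and 27.0–30.9 in KO, the neuron genes 4485–9192, 8650–12670 and 10350–15000 CPM, and NEUROG2 47.7–94.1, 57.4–91.9 and 19.5–30.7 CPM; the pluripotency genes summed to 106.4–129.8, 130.6–192.1 and 278.9–346.4 CPM, which did not overlap, although of the 3 tested 1 was called higher and 2 lower in KO. The neural progenitor genes summed to 457.8–692.0, 502.2–780.4 and 233.6–457.9 CPM, with 4 of 8 lower in KO, the astrocyte and oligodendrocyte genes to 94.2–229.1, 95.9–162.0 and 66.9–150.3 CPM, and the mesenchymal genes to 39.5–59.7, 6.40–41.1 and 4.99–6.93 CPM. The structural RNA share at day 7 was 14.5% to 25.6% in WT, 2.84% to 27.5% in HET and 9.90% to 15.8% in KO. The part of any of these values in the differences was not tested.

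DCLK1 and MAP2 were the most different members at day 7. DCLK1 stood at 32.0, 87.5, 83.2 and 119.6 CPM in WT, 152, 413, 494 and 226 in HET and 542, 522, 477 and 339.8 in KO. The log2 difference was 2.54 (SE 0.42, adjusted p = 0.000721) in KO and 1.99 (SE 0.41, adjusted p = 0.00678) in HET. MAP2 stood at 164, 479, 455 and 578 CPM in WT, 676, 1616, 1821 and 1357 in HET and 1747, 1868, 1851 and 1524 in KO. It differed by 2.06 (SE 0.37, adjusted p = 0.00116) in KO and 1.70 (SE 0.36, adjusted p = 0.00818) in HET. For both genes every mutant library was above every WT library. Groups did not overlap for 36.8% of all genes in KO against WT and for 13.9% in HET against WT.

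MAPT stood at 78.7, 155, 222 and 173 CPM in WT, 477, 336, 477 and 203 in HET and 602, 546, 628 and 391 in KO, with differences of 1.79 (SE 0.32, adjusted p = 0.00135) in KO and 1.24 (SE 0.32, adjusted p = 0.0207) in HET. HET replicate 4 fell within the WT range. The HET call was lost without WT replicate 2 (adjusted p = 0.0519) or HET replicate 3 (0.0684). MAP1B stood at 2666, 6228, 5160 and 6876 CPM in WT, 4915, 10790, 12640 and 7987 in HET and 12440, 12570, 13310 and 8924 in KO, and its KO difference was 1.17 (SE 0.34, adjusted p = 0.0184). MAP1A stood at 231, 428, 389 and 496 CPM in WT, 371, 466, 380.3 and 461 in HET and 348, 438, 379 and 350.2 in KO, so the 3 genotypes overlapped (-0.03 (SE 0.21, adjusted p = 0.933) in KO).

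DCX stood at 1738, 3428, 3060 and 3273 CPM in WT, 2752, 4684, 5204 and 3583 in HET and 4898, 5333, 5461 and 4095 in KO. Its KO difference, 0.78 (SE 0.26, adjusted p = 0.0350), was the smallest of the 8 called and was lost without WT replicate 1 (adjusted p = 0.0725) or 3 (0.0653) or KO replicate 1, 2 or 3 (0.0765, 0.0805 and 0.0867). The neuron-enriched stathmins STMN2, at 841, 1453, 1870 and 1583 CPM in WT and 2818, 3079, 2719 and 2094 in KO, and STMN4, at 46.5, 94.1, 146 and 134 and 174, 242, 228 and 267, differed by 0.90 (SE 0.24, adjusted p = 0.0115) and 1.12 (SE 0.29, adjusted p = 0.0103). The change in the difference from day 3 was tested and is given with the time course. HET libraries stood at 1847, 2334, 2520 and 2075 CPM for STMN2 and 258, 172, 216 and 203 for STMN4, of which STMN4 was called (1.01, SE 0.29, adjusted p = 0.0328), a call lost without WT replicate 2 (adjusted p = 0.0836) or HET replicate 3 (0.0775) or 4 (0.0543).

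STMN1, which had overlapped at day 3, was separate from WT in KO at day 7, while HET still overlapped WT and was not called (0.63, SE 0.22, adjusted p = 0.0691). It stood at 619.6, 854, 877 and 1159 CPM in WT, 1009, 1380, 1680 and 1379 in HET and 1945, 1987, 1732 and 1509 in KO. The KO difference was 1.03 (SE 0.22, adjusted p = 0.00337). The list of proliferation genes, which STMN1 is known to accompany in dividing cells, was lower in KO than in WT on the same day: 8 of 8 were called lower. STMN3 stood at 261, 296, 399.6 and 481 CPM in WT, 732, 307, 268 and 341 in HET and 255, 282, 279.7 and 265 in KO, and its KO difference was -0.41 (SE 0.29, adjusted p = 0.301). HET replicate 1, the library with 27.5% structural RNA, was the highest HET library for STMN3 and the lowest for 7 of the 10 genes. Without it 7 genes were called in HET at day 7, MAP1B (0.97, adjusted p = 0.0249), STMN1 (0.72, 0.0141) and STMN2 (0.65, 0.0476) being added. The share of all genes called in that fit is not given. Without HET replicate 3 or WT replicate 2 the genes called were MAP2 and DCLK1, and without WT replicate 4 STMN1 was added (0.79, 0.0347).

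The time course differed between KO and WT by a direct test of the difference in change, fitted over all 36 libraries. From day 0 to day 3 the change was larger in KO for 8 members, against 8.55% of all genes called, 5.37% in this direction and 3.19% in the other; limma on TPM called 4 of the 8. These were MAPT (2.88, SE 0.40, adjusted p = 1.79e-05), MAP2 (2.28, SE 0.60), MAP1A (1.39, SE 0.29), MAP1B (1.41, SE 0.39), DCX (2.92, SE 0.55), DCLK1 (2.21, SE 0.63), STMN2 (2.703, SE 0.59) and STMN4 (3.57, SE 0.89, adjusted p = 0.0101). For MAP2 the sign of the change itself differed: it fell by 1.15 in WT and rose by 1.11 in KO on the log2 scale, the latter call being lost without KO day 0 replicate 4 (adjusted p = 0.0622) or KO day 3 replicate 2 (0.0707). Without WT day 0 replicate 2 the count was 5, since MAP1B, DCLK1 and STMN4 were lost (adjusted p = 0.0559, 0.0591 and 0.139). MAP1B was also lost without KO day 0 replicate 1, WT day 3 replicate 4 or KO day 3 replicate 2 (adjusted p from 0.0513 to 0.0597), and DCLK1 without KO day 0 replicate 3 or 4, WT day 3 replicate 1 or 4, or KO day 3 replicate 1 or 2 (from 0.0554 to 0.0640).

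From day 3 to day 7, 4 members changed less or more negatively in KO and 1 changed more, against 18.5% of all genes called, 10.9% with a negative and 7.6% with a positive difference; limma on TPM called 0. The 4 were MAP1A (-1.44, SE 0.29, adjusted p = 0.000551), DCX (-2.16, SE 0.55), STMN2 (-2.65, SE 0.57) and STMN4 (-2.96, SE 0.69), and the other was STMN1 (0.90, SE 0.24, adjusted p = 0.00772). Both intervals share the day-3 libraries. Without WT day 7 replicate 1 MAPT also passed (-0.97, adjusted p = 0.0496), and without KO day 3 replicate 4 STMN3 (-1.31, 0.0369). MAP1A changed by -1.69 (SE 0.19, adjusted p = 6.26e-06) in KO and by -0.87 (SE 0.20, adjusted p = 0.00333) in HET between days 3 and 7, falling in both, while its WT change was -0.30 (SE 0.21, adjusted p = 0.279). STMN1 rose in KO, 0.51 (SE 0.17, adjusted p = 0.0219), a call lost without KO day 3 replicate 1 or KO day 7 replicate 1 or 2 (adjusted p = 0.0560, 0.0554 and 0.0612), and fell in WT. For HET no member was called in either interval by edgeR, beside 0.271% (0.182% positive, 0.0888% negative) and 4.74% (2.06% positive, 2.69% negative) of all genes; unadjusted p-values under 0.05 numbered 3 and 1, DESeq2 called 2 and 0, and limma on TPM called 0 in both. Without HET day 3 replicate 4, edgeR called DCX (2.26, adjusted p = 0.0202) and STMN2 (2.66, 0.00825) in the first interval and STMN2 (-1.96, 0.0161) in the second.

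KO libraries at day 3 were set against WT libraries at day 7 to place the levels, a comparison that crosses genotype and time. MAPT (-1.67, SE 0.27, adjusted p = 1.38e-05) and STMN4 (-1.25, SE 0.48, adjusted p = 0.0450) were lower in KO at day 3, MAP1A (1.72, SE 0.21, adjusted p = 1.90e-07) and STMN1 (0.56, SE 0.17, adjusted p = 0.0124) were higher, and 6 members were not called, against 30% of all genes called, 16.1% higher and 14% lower. Of those 6, MAP2 was 279–846 CPM in KO at day 3 and 164–578 in WT at day 7. The STMN1 call was lost without KO day 3 replicate 3 (adjusted p = 0.0798) or WT day 7 replicate 1 (0.0655), and the STMN4 call without KO day 3 replicate 1, 2 or 3 or WT day 7 replicate 2, 3 or 4 (adjusted p from 0.0619 to 0.133). With limma on log2(TPM + 1) MAPT (-0.72, adjusted p = 0.215) and STMN4 (-0.28, 0.660) were not called. STMN2 passed when WT day 7 replicate 1 was left out (-1.11, adjusted p = 0.0459).

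Levels of different genes were compared per length, as TPM within a library. In WT at day 0, STMN1 was the highest member at 276.8 ± 25.4 TPM (SD, n = 4), followed by MAP1B at 78.5 ± 13.4, MAP2 at 37.96 ± 11.3 and STMN3 at 20.9 ± 3.77, with no overlap between neighbours down to MAP1A at 5.17 ± 1.14. DCLK1, DCX, STMN2 and MAPT followed with overlapping ranges, from 3.31 ± 1.04 to 0.95 ± 0.17 TPM, and STMN4 was lowest at 0.22 ± 0.23. At day 7 in WT the order was STMN1, STMN2, MAP1B, DCX, STMN3, MAP2, STMN4, MAPT, MAP1A and DCLK1, and the ranges of all neighbours overlapped between libraries; TPM has a fixed sum in each library that includes the structural RNAs. Within single WT day-7 libraries STMN1 exceeded STMN2 in 3 of 4.

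Shares within the stathmin family are free of that scaling. STMN1 made up 92.4% ± 1.19 of summed stathmin TPM in WT at day 0 and 90.2% ± 1.80 at day 3 (SD, n = 4). In KO at day 3 it made up 68.0% ± 8.45 and in HET 83.7% ± 4.69, with STMN2 at 22.2% ± 5.83 and 9.04% ± 4.19 against 2.73% ± 0.99 in WT. At day 7 the 3 genotypes were again close in STMN1, with 46.9% ± 4.61 in WT, 45.6% ± 7.86 in HET and 51.4% ± 1.25 in KO. STMN3 made up 8.499% ± 1.08 in WT and 3.40% ± 0.45 in KO at day 7.

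**Figure D3:**
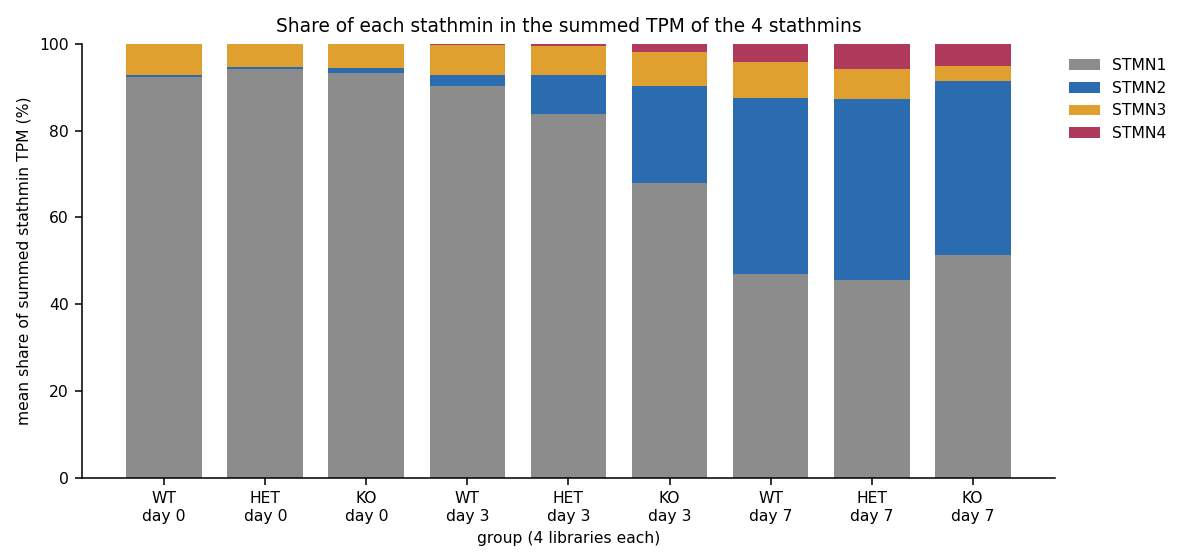
Mean share of each stathmin in the summed TPM of the 4 stathmins, as stacked bars from 0 to 100%, by group of 4 libraries. STMN1 (grey) takes 92.4% in WT at day 0 and 46.9% at day 7, and 68.0% in KO at day 3, where STMN2 (blue) takes 22.2%.

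Ratios of paired family members were tested within libraries by exact two-sided permutation, whose smallest p with 4 against 4 libraries is 0.0286; over the 18 tests none passed after adjustment, the lowest adjusted p being 0.103. At day 7 the log2 ratio of MAP1A to MAP1B averaged -4.02 ± 0.13 in WT, -4.53 ± 0.47 in HET and -5.15 ± 0.24 in KO, a KO difference of -1.12 with complete separation (exact permutation p = 0.0286). The log2 ratio of DCX to DCLK1 at day 7 averaged 4.82 ± 0.31 in WT, 3.32 ± 0.45 in HET and 2.95 ± 0.23 in KO (exact permutation p = 0.0286 for each mutant). At day 3 that of STMN2 to STMN1 averaged -5.14 ± 0.65 in WT, -3.35 ± 0.84 in HET and -1.65 ± 0.58 in KO (exact permutation p = 0.0286 for each mutant). The remaining 13 tests had exact p-values of 0.0571 or more.

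**Figure D4:**
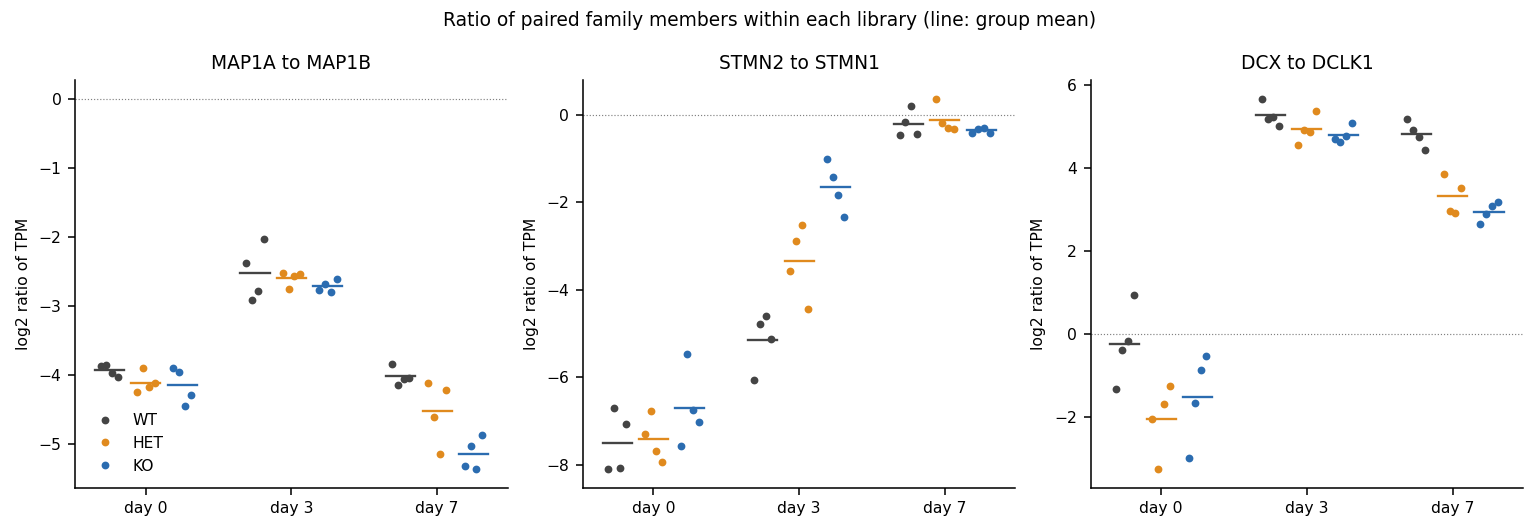
Log2 ratio of TPM for 3 pairs of family members in each library, by day and genotype (black WT, orange HET, blue KO; 4 libraries each; line: group mean). The STMN2 to STMN1 ratio at day 3 averages -5.14 in WT and -1.65 in KO, and the DCX to DCLK1 ratio at day 7 averages 4.82 in WT and 2.95 in KO.

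Other microtubule genes were taken from 7 lists, 98 genes that include no member. In KO against WT at day 3, 42 of the 96 tested were higher and 9 lower, with a median log2 difference of 0.51 beside -0.05 for all genes, and at day 7, 37 were higher and 16 lower (median 0.26 beside -0.04). Backgrounds were 12.6% higher and 8.93% lower at day 3, and 17% and 15.6% at day 7. In HET the counts were 8 higher and 0 lower at day 3, and 18 higher and 11 lower at day 7, against 2.52% and 0.761%, and 8.31% and 6.1%, of all genes.

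Further lattice-binding proteins were partly higher. Of 17 structural microtubule-associated proteins, 6 of 15 tested were higher in KO at day 3 and none lower, including MAP6, a microtubule stabiliser, at 34.9 ± 12.2 CPM in WT and 188 ± 28.2 in KO (log2 2.41, adjusted p = 6.52e-05). At day 7, 5 of 16 were higher and 1 lower: NAV3, a neuron navigator, 7.74 ± 4.77 CPM in WT and 108 ± 20.2 in KO (log2 3.79, adjusted p = 0.000526), and MAP7D2, 1.79 ± 0.823 CPM in WT and 16.7 ± 1.97 in KO (log2 3.21, adjusted p = 0.000254), rose relative to WT, while MAP7D3 was lower, 9.003 ± 1.83 CPM in WT and 2.38 ± 0.279 in KO (log2 -1.92, adjusted p = 0.000203). End-binding proteins were higher for 9 of 14 at both days, with 1 lower at day 3. CAMSAP3, which caps minus ends, was at 1.59 ± 0.514 CPM in WT and 6.64 ± 1.07 in KO (log2 2.04, adjusted p = 0.000422) at day 3. MAPRE2, a plus-end binder, was at 104 ± 27.2 CPM in WT and 580.2 ± 138 in KO (log2 2.48, adjusted p = 0.000181) at day 7. All 5 collapsin response mediator proteins, tubulin-dimer binders of growing axons, were higher at day 3 and 4 at day 7; DPYSL3 was 80.2 ± 21.0 CPM in WT and 595 ± 202 in KO (log2 2.87, adjusted p = 9.48e-05) at day 3.

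Enzymes that act on microtubules or their binding proteins were mixed. Severing enzymes were higher for 2 of 8 and lower for 1 at day 3, with SPAST at 23.1 ± 5.26 CPM in WT and 49.7 ± 14.0 in KO (log2 1.09, adjusted p = 0.0185). The lower gene was FIGNL1, at 21.23 ± 4.525 CPM in WT and 11.58 ± 3.4 in KO (log2 -0.90, adjusted p = 0.01425). At day 7, 3 were higher and 1 lower, KATNA1, at 9.292 ± 1.49 CPM in WT and 5.274 ± 0.6481 in KO (log2 -0.81, adjusted p = 0.009245). Of 23 genes that modify tubulin, 9 were higher and 2 lower at day 3, and of 22 tested at day 7, 6 were higher and 4 lower. VASH2, which removes the terminal tyrosine of alpha-tubulin, changed sides, 90.5 ± 15.0 CPM in WT and 37 ± 13.7 in KO (log2 -1.31, adjusted p = 0.00449) at day 3 and 11.1 ± 5.33 CPM in WT and 84.3 ± 7.55 in KO (log2 2.93, adjusted p = 0.000157) at day 7. TTLL6, a glutamylase, did the opposite, 19.3 ± 3.12 CPM in WT and 55.0 ± 7.90 in KO (log2 1.49, adjusted p = 5.63e-05) at day 3 and 21.5 ± 5.40 CPM in WT and 9.65 ± 3.09 in KO (log2 -1.15, adjusted p = 0.0144) at day 7. Of 19 kinases and regulators, 11 were higher and none lower at day 3, led by the tau-tubulin kinase TTBK1, 2.95 ± 1.11 CPM in WT and 31.6 ± 12.1 in KO (log2 3.40, adjusted p = 0.000458). At day 7, 10 were higher and 1 lower, with PPP2R2B, a regulatory subunit of the phosphatase PP2A, at 4.30 ± 1.46 CPM in WT and 60.1 ± 19.7 in KO (log2 3.802, adjusted p = 0.000154). The lower gene was NDE1, at 16.17 ± 2.915 CPM in WT and 4.546 ± 1.313 in KO (log2 -1.83, adjusted p = 0.0003997).

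Spindle-associated proteins went the other way. Of 12, none was higher and 5 were lower in KO at day 3, and none was higher and 9 were lower at day 7, with medians of -0.66 and -1.33. NUSAP1, a spindle bundling protein, was 165 ± 44.0 CPM in WT and 77.2 ± 32.9 in KO (log2 -1.11, adjusted p = 0.0211) at day 3 and 14.1 ± 9.51 CPM in WT and 1.44 ± 0.382 in KO (log2 -3.29, adjusted p = 0.000599) at day 7. In HET their median was -0.03 at day 3, and 8 were lower at day 7 (median -1.31). The list of proliferation genes moved with these values, 5 of 8 lower in KO at day 3.

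The genes most like each member were found by Pearson's r of log2(CPM + 1) over the 36 libraries among 12373 genes averaging at least 5 CPM; such values describe these libraries, which share 3 days and 3 genotypes. MAPT was most like TSPAN7 and SNAP91 (r = 0.99 each) and STMN4 like RAB6B and SNAP91 (0.991 each). DCX was most like ONECUT2 (0.992) and NCAM1 (0.99), STMN2 like TUBA1A (0.989) and MYT1 (0.988), MAP1A like NCS1 and TRAK1 (0.984 each), and MAP1B like SLC4A8 and ST7 (0.983 each). The genes nearest to STMN3 were TMEM198 (0.978) and MAPK8IP2 (0.973), those nearest to STMN1 were SLC16A6 (0.975) and TMTC4 (0.972), those nearest to MAP2 were ADGRL3 (0.974) and SILC1 (0.956), and those nearest to DCLK1 were FAXC (0.962) and LGI2 (0.952). Between members the lowest r was 0.075, for MAP1A and DCLK1.

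On GRCh38 (GENCODE release 29) the genes lie apart on the genome. MAPT spans chr17:45894382-46028334, MAP2 chr2:209424058-209734118, MAP1A chr15:43510958-43531620 and MAP1B chr5:72107234-72209570, all 4 on the plus strand. DCX, at chrX:111293779-111412429, and DCLK1, at chr13:35768652-36131306, are on the minus strand. STMN1, at chr1:25884181-25906991, STMN3, at chr20:63639705-63657682, and STMN4, at chr8:27235323-27258420, are on the minus strand, and STMN2, at chr8:79610814-79666175, is on the plus strand.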

How the data were processed

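RNA-seq libraries from total RNA (rRNA-depleted, paired-end 151 bp) were compared. The authors deposited gene-level expected counts, TPM and FPKM per library; per the submitters' processing notes the tools were cutadapt 4.8, FastQC 0.11.8, MultiQC 1.20, STAR 2.7.8a and RSEM 1.3.3 on GRCh38, while their roles, the annotation and use of strand are not given in the sources used here. The deposited expected counts were whole numbers in the tables and were used as they stand. The authors' TPM sum to 999998.3 to 1000000.7 per library; the deposited FPKM differ from them by a factor of 0.912 to 4.03 per library, which cancels in a ratio of 2 genes, so they give no independent check of the ratios; counts were the alternative there.

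Reporter features (4 rows, at most 0.0171% of a library) were left out. Genes were filtered with filterByExpr and tested with edgeR 4.0.16 (trimmed-mean factors, quasi-likelihood test, Benjamini-Hochberg adjustment over all genes, threshold 0.05) in the 12 libraries of a day or genotype, or in all 36 for differences in change and for KO day 3 against WT day 7. The standard error is the log2 fold change divided by the square root of F. Ratios of family members used an exact permutation test of the 70 splits, adjusted over 18 tests. Alternatives were other scalings, no filter, DESeq2 1.42.0, limma 3.58.1 on log2(TPM + 1) and log2(TPM + 0.1), removal of the structural RNAs, a fit of all libraries, a block for the replicate number, and each library left out in turn. The test code was checked on simulated counts with 200 genes changed by 1.5 on the log2 scale. For KO against WT at day 3, 5.66% of the edgeR calls were false, 5.33% with the block, 20.81% with DESeq2 and 6.37% with limma. Of the changed genes 75%, 71%, 87.5% and 73.5% were called, in the same order. With edgeR the false share was 8.66% for the KO change from day 0 to day 3 and 7.29% for WT day 3 against day 0. There 58% and 89% of the changed genes were called. The simulated counts held no effect of replicate number, and limma was given counts per library total in place of TPM. The rates with the block and with limma therefore do not carry over to the data.

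Replicate numbers come from the labels, which do not say what they share. Deviations of same-numbered libraries correlated above 0.1 in all 4 pairs for KO and WT at day 0 (0.252 to 0.628), KO and WT at day 3 (0.14 to 0.549) and HET and WT at day 3 (0.166 to 0.767), so the blocked result is given for these. Blocked results are also printed for HET against WT at day 0, KO against HET at day 3 and WT days 3 to 7. There the lowest correlations were -0.027, -0.037 and -0.293.

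The members, gene lists and E-box letters were chosen with earlier results of these data known. All members are named; from each of the 7 other microtubule lists the rule took the 2 largest called rises and falls in KO against WT at days 3 and 7 with a mean of at least 5 CPM in the higher group, some of which are printed, and for each member the 2 genes with the highest r. RAI1 and NEUROG2 were added after the values were seen. Gene positions are from GENCODE 29, which matched 92.93% of gene identifiers and 10 of 10 members, and promoter windows from RefSeq on GRCh38.p14.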

Additional observations from a re-analysis of the deposited data

Results flagged for a closer look

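In 13 cases a member changed differently over an interval in KO than in WT, by a direct test (edgeR, adjusted p under 0.05). Of all genes, 8.55% were called in the first interval (5.37% positive, 3.19% negative) and 18.5% in the second (7.6% positive, 10.9% negative). Limma on TPM called 4 members in the first interval and 0 in the second. Leaving out 1 library gave 5 to 8 called members in the first and 5 to 6 in the second. From day 0 to day 3 the log2 difference in change, KO minus WT, was 2.88 for MAPT, 2.28 for MAP2, 1.39 for MAP1A, 1.41 for MAP1B, 2.92 for DCX, 2.21 for DCLK1, 2.703 for STMN2 and 3.57 for STMN4. From day 3 to day 7 it was -1.44 for MAP1A, -2.16 for DCX, -2.65 for STMN2, -2.96 for STMN4 and 0.90 for STMN1. STMN1 was thus the member whose later difference was positive.

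A single library stood far from the other 3 of its group in 4 of 90 groups examined, where chance gives about 1 in 20. MAPT was lowest in WT day 3 replicate 1, at 4.48 CPM. MAP1A was highest in KO day 3 replicate 2, at 1660 CPM. STMN3 was highest in HET day 0 replicate 4, at 63.9 CPM, and in HET day 7 replicate 1, at 732.5 CPM, the library in which the structural RNAs took 27.5% of counts.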

How the results depend on the processing

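No called member changed direction under any alternative, and ratios of family members moved by less than the spread between replicates when counts replaced TPM or 1 library was left out. The share of all genes called was not set beside the counts of called members under each alternative. Those counts moved by over 1.5 times as follows. With limma on log2(TPM + 1) and on log2(TPM + 0.1) they were 0 for KO and HET against WT at day 0, HET against WT and KO against HET at day 3 and the KO change from day 3 to day 7, 4 for KO against WT at day 7 and the KO change from day 0 to day 3, 5 for KO day 7 against day 3, and 2 for KO day 3 against WT day 7; log2(TPM + 1) alone gave 0 for HET against WT at day 7 and 5 for HET day 3 against day 0. A fit of all 36 libraries gave 0 for both mutants at day 0, 6 for HET against WT and 7 for KO against HET at day 3, and 5 for KO against WT at day 7. DESeq2 gave 7 for HET against WT and 6 for KO against HET at day 3 and 2 for the HET change from day 0 to day 3, and no filter gave 4 for HET against WT at day 3; the cause was not tested. With the replicate number as a block the counts were 8 for HET against WT and for KO against HET at day 3 and 2 for HET against WT at day 0. For KO against WT at day 3 the block gave 9 in place of 8, a move below 1.5 times. Elsewhere the block changed 1 call, STMN1 between WT days 3 and 7 (adjusted p = 0.0582). In KO and WT at day 0 all 4 libraries correlated best with their own number. Leaving out 1 library gave 0 to 1 called members for KO and for HET against WT at day 0, 8 to 9 and 0 to 7 at day 3, 7 to 8 and 2 to 7 at day 7, 1 to 4 for KO against HET at day 3, 5 to 8 and 5 to 6 for the KO change in the first and second interval, 0 to 2 and 0 to 1 for the HET change, and 2 to 4 for KO day 3 against WT day 7. Within genotypes it gave 10 to 10, 8 to 9, 8 to 9, 8 to 8, 8 to 9 and 7 to 9 for the WT, HET and KO intervals in order. TPM shifts all genes: their median was 0.20 for KO against WT at day 3, 0.18 at day 7, 0.46 for HET at day 7 and 0.30 for KO day 3 against WT day 7 on log2(TPM + 1). The share of called genes that were higher was then 85.9% against 58.6% for KO at day 3, 64.1% against 76.8% for HET at day 3, 26.7% against 50.4% for WT days 3 to 7, 21.0% against 50.5% for HET and 28.5% against 50.1% for KO days 0 to 3, 34.5% against 50.8% for KO days 3 to 7, 36.5% against 67.2% and 65.1% against 43.4% for the HET changes, and 93.6% against 53.5% for KO day 3 against WT day 7; log2(TPM + 0.1) gave 88.0% against 57.7% for HET against WT and 35.6% against 47.5% for KO against HET at day 7, and scaling by library size alone 51.1% against 62.7% for the KO change from day 0 to day 3. STMN4 at day 0, at 0.0275 to 1.28 CPM, is limited by depth.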
